A study of Mus musculus with 4 samples.

Results

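The mitochondrial genome of mouse T-helper 2 (Th2) cells was described through the 37 genes that the count files place on chromosome M, out of 50600 genes in all. The members were chosen by chromosome alone, and their identifiers, bounds and strands were the same in GENCODE M21 for 37 of 37. They are 1 mRNA gene (mt-Nd6) and 8 tRNA genes on the minus strand, and 12 mRNA, 2 rRNA and 14 tRNA genes on the plus strand. The data are gene counts from 4 libraries of Th2 primary cells of strain C57BL/6NJ. These are CD4 T cells that make interleukins 4, 5 and 13, taken 72 h after sorting per the headers. All 4 libraries form 1 group with no treated or control arm, so genes were compared within a library and the 4 biological replicates give the spread. The labels give each library its own biosample and the same donor record. Total RNA-seq is the assay named there, but the linked protocol is titled for poly(A) RNA.

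Mitochondrial DNA is a small circle that encodes subunits of the respiratory chain and of ATP synthase, together with the rRNAs and tRNAs that translate them. Both strands are transcribed as long precursors. One precursor carries the rRNAs and all mRNAs but one, and the other carries ND6 and a minority of the tRNAs among long noncoding stretches that are degraded. The tRNAs lie between the other genes, and their excision by RNase P and the ELAC2 nuclease frees the mRNAs and rRNAs. T cells raise mitochondrial mass and respiration when they are activated.

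The total gene count was 1780682, 1857433, 1446040 and 1274431 in replicates 1 to 4, at which depth 3 counts, the limit that a count of 0 allows, correspond to 1.62 to 2.35 counts per 1000000 (CPM). Neither intervals nor this limit cover more than counting error. Of the cell markers, Il4 had 64 to 110 counts, Il13 40 to 208 and Cd4 22 to 165, while Cd8a, Itgam, Lyz2 and Hbb-bs had 0 in 4 of 4 libraries and Cd79a, a B cell gene, had 2 to 41. A count here is a fragment assigned to the annotated strand of a gene with the strand option of the counter set to 1. The sources used here do not give the strand orientation of the library kit. A level below is thus an own-strand count level and was not taken as the level of the mRNA, rRNA or tRNA. Genes with no exon across from another gene's exon held 16.4%, 8.54%, 9.14% and 20.1% of all counts in replicates 1 to 4. Whether the counts lie on the strand of the RNA or opposite to it was not tested. In bulk RNA, fewer cells and less mitochondrial RNA per cell cannot be told apart.

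Sequences were printed for mt-Tp, mt-Tq and mt-Nd6, minus-strand genes that were above the plus-strand gene touching them in every library. The pair of mt-Ts1 and mt-Co1, which also share 3 bases, was not printed. There the minus-strand gene was below its neighbour in every library. The sequences are those of GENCODE M21 transcripts, which share the assembly of the files (mm10), and each is written 5′ to 3′ on the strand of its own gene. Capitals mark bases that both genes of a pair share, read from opposite strands. The tRNA genes mt-Tp (tRNA-Pro, minus strand, chrM:15356-15422) and mt-Tt (tRNA-Thr, plus strand, chrM:15289-15355) abut without a shared base. The tRNA genes mt-Tq (tRNA-Gln, minus strand, chrM:3772-3842) and mt-Ti (tRNA-Ile, plus strand, chrM:3706-3774) share 3 bases. The last 60 bases of mt-Nd6 (minus strand, chrM:13552-13611) and of mt-Nd5 (plus strand, chrM:13506-13565) share 14 bases at their 3′ ends.
mt-Tp: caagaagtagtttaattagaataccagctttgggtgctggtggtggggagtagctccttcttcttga
mt-Tt: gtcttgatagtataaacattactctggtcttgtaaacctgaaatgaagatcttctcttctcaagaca
mt-Tq: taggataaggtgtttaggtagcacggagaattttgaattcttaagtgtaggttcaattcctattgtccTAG
mt-Ti: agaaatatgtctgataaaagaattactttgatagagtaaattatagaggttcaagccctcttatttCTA
mt-Nd6: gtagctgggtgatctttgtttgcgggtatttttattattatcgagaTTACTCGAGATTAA
mt-Nd5: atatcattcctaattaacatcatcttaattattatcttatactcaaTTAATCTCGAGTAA

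In 4 of 4 libraries most mitochondrial counts were assigned to minus-strand genes, although these cover 1068 bases against 14373 on the plus strand. Which strand the RNA behind these counts came from depends on the kit orientation and was not tested. The 37 genes together held 2.38% (95% Wilson interval 2.36 to 2.41), 1.95% (1.93 to 1.97), 2.17% (2.15 to 2.20) and 2.65% (2.62 to 2.68) of all counts in replicates 1 to 4. Within these, the 9 minus-strand genes took 67.2%, 68.0%, 71.3% and 65.2%, and the widest Wilson interval, in replicate 4, was 64.7 to 65.7. The gene mt-Nd6 alone, which encodes a membrane subunit of complex I, took 60.7%, 60.7%, 65.6% and 59.9% of the mitochondrial counts. Few bases are annotated on both strands. Of the 1068 bases of the minus-strand genes, 20 are shared with a plus-strand gene, and the 579 bases between mt-Nd5 and mt-Cytb, which hold most of mt-Nd6, carry no plus-strand gene.

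Per kb of gene, the minus strand exceeded the plus strand among the mRNA genes and among the tRNA genes in each library. Over mRNA genes, mt-Nd6 had 49626, 42310, 39697 and 38990 counts per kb in replicates 1 to 4, against 1193, 1032, 807 and 1006 for the 12 plus-strand genes pooled. The fold was 38.7 to 49.1 over the libraries, a log2 ratio of 5.41 ± 0.15 (SD, n = 4). Over tRNA genes, the 8 on the minus strand pooled to 5036, 4772, 3259 and 3259 counts per kb, against 148, 167, 43.1 and 52.5 for the 14 on the plus strand, a log2 ratio of 5.51 ± 0.66. Over all genes the ratio was 4.83 ± 0.17. It was 2.33 without mt-Nd6 and 7.33 with the median over genes in place of pooling. The difference between the strands was thus many times the spread between replicates in these 3 comparisons. It is given as a description with no p, because the pattern was known when the genes were chosen. The plot of pooled counts by strand shows the libraries side by side.

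**Figure D1:**
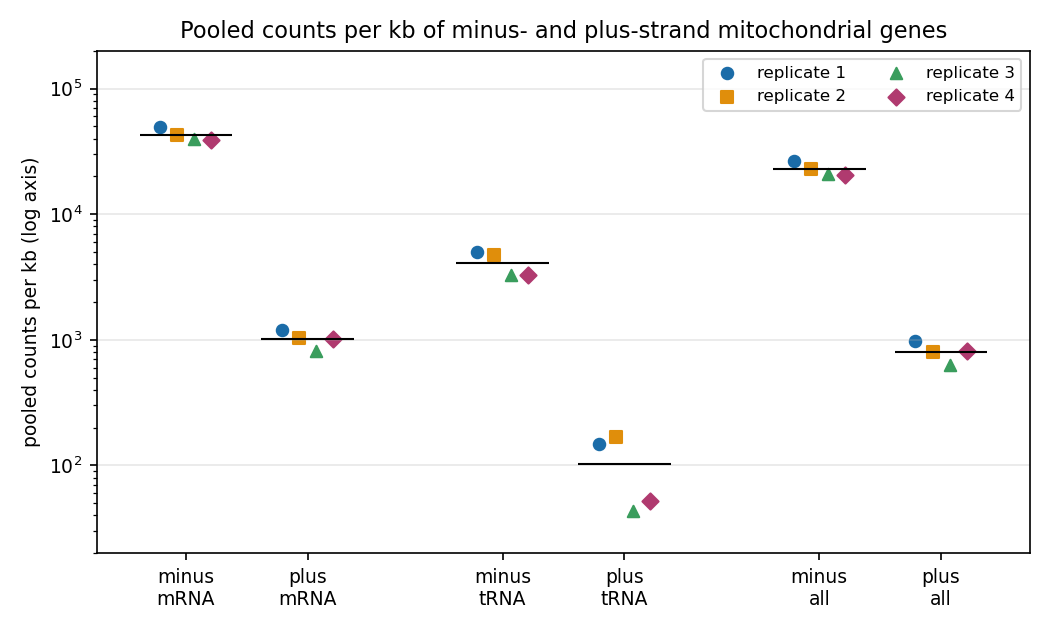
Pooled counts per kb (log axis) of minus-strand and plus-strand mitochondrial genes, for mRNA genes, tRNA genes and all genes. Points are the 4 libraries and bars their mean; the minus-strand and plus-strand points do not overlap in any of the 3 sets, and the plus-strand tRNA genes have the lowest mean at 103 counts per kb.

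On the minus strand, mt-Nd6 and mt-Tp stood far above the other 7 genes. The mean of mt-Nd6 was 27174 ± 3244 FPKM (counts per kb per 1000000 gene counts, SD, n = 4), the highest of all 50600 genes. It had 25756, 21959, 20603 and 20236 counts. The tRNA gene mt-Tp had 1481, 1545, 1115 and 1038 counts and 12123 ± 427 FPKM, place 6 of all genes, with a coefficient of variation of 3.53% over the libraries. This low spread belongs to the total-count scale: the range of its log2 level was 0.11 there and 0.50 with TMM factors. A fragment that overlaps a short gene in part can be counted for it, so counts per kb of tRNA and mRNA genes are not on one footing. In counts, mt-Tp was still higher than the rRNA genes mt-Rnr1 and mt-Rnr2 in 4 of 4 libraries.

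The remaining minus-strand tRNA genes covered a wide range. The tRNA-Gln gene mt-Tq had 319, 266, 229 and 261 counts, and the tRNA-Glu gene mt-Te, directly upstream of mt-Nd6 on this strand, had 356, 241, 112 and 149. In the cluster between mt-Nd2 and mt-Co1, where the light-strand replication origin lies, mt-Ta (tRNA-Ala) had 235, 176, 109 and 108 counts. In the same cluster mt-Tn (tRNA-Asn) had 33, 57, 34 and 12, mt-Tc (tRNA-Cys) 152, 166, 87 and 90, and mt-Ty (tRNA-Tyr) 184, 168, 101 and 130. Within each library mt-Tn was the lowest of these 4, although 2 bases separate it from mt-Ta. The tRNA-Ser gene mt-Ts1 was the lowest on the strand with 5, 1, 2 and 1 counts. By position it lies inside the nuclear copy on chromosome 1 described below. The nearest annotated minus-strand gene lies 1216 bases from mt-Tp, while mt-Nd6 touches mt-Te.

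On the plus strand the tRNA genes had few counts or none. The 14 genes summed to 141, 159, 41 and 50 counts, against 2765, 2620, 1789 and 1789 for the 8 minus-strand tRNA genes. In 6 of the 14 no library had a count. The highest means belonged to mt-Ts2 (tRNA-Ser) with 56, 56, 18 and 8 counts, mt-Th (tRNA-His) with 29, 52, 3 and 8, and mt-Tt with 17, 14, 13 and 21. No other plus-strand tRNA gene exceeded 29 counts in any library. These genes sit tightly packed, since 14 of 14 lie within 1 base of another plus-strand gene. The command in the file headers does not set the option that counts a fragment over several genes. On the minus strand, 5 of the 8 tRNA genes lie within 2 bases of another minus-strand gene and had 12 to 356 counts per library. What part the packing had in the low counts of the plus-strand tRNA genes was not tested.

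**Figure D2:**
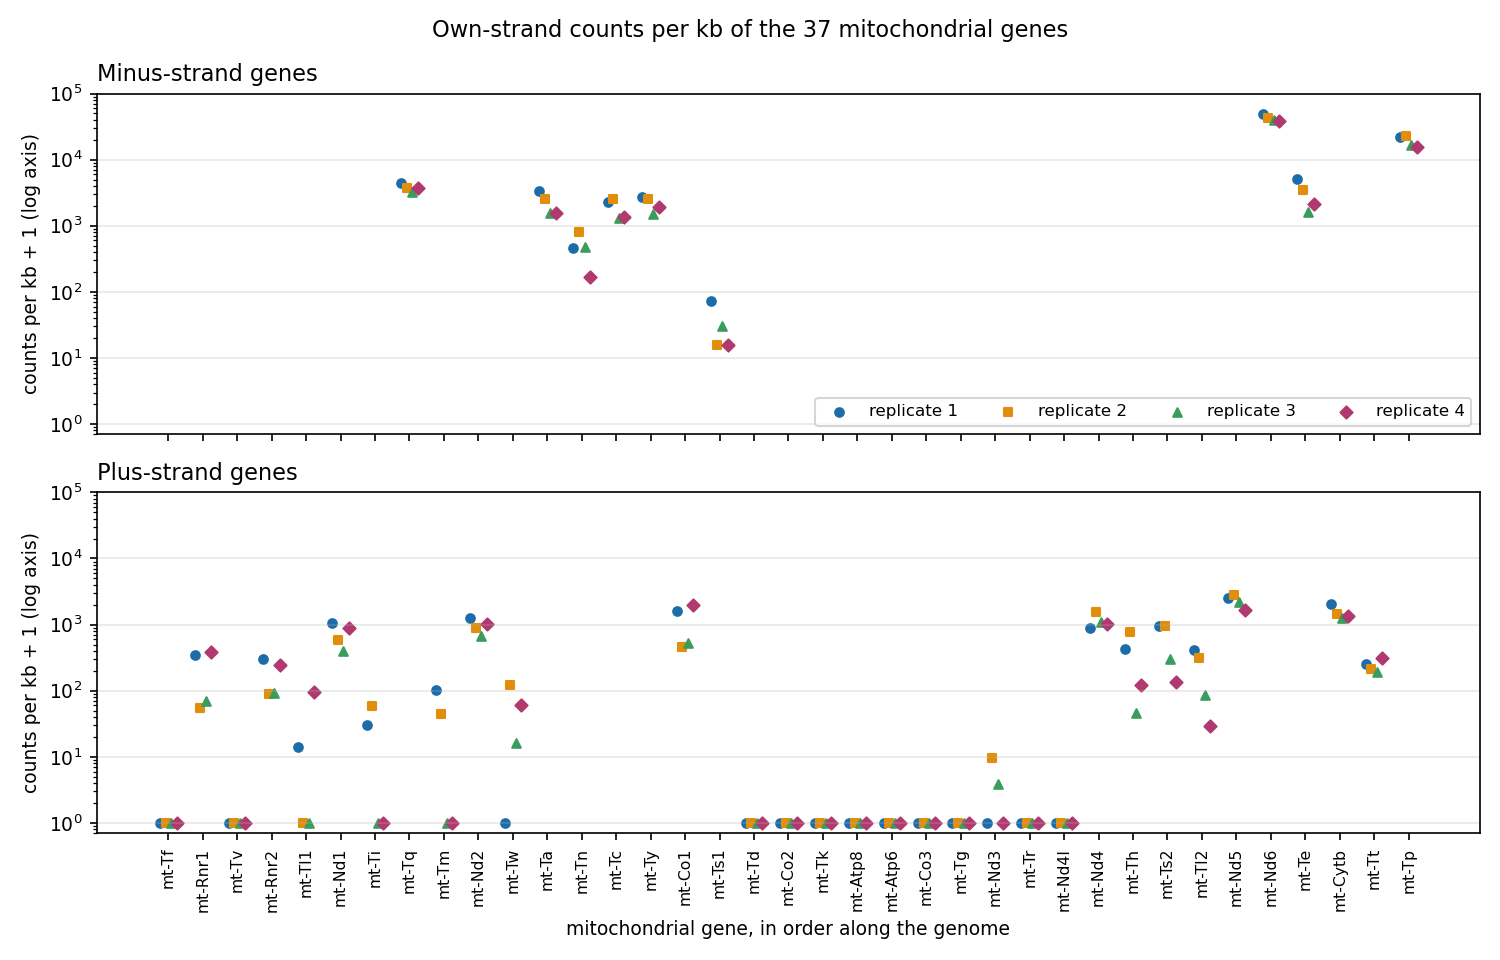
Counts per kb plus 1 (log axis) of the 37 mitochondrial genes in their order along the genome, minus-strand genes above and plus-strand genes below, with 1 point per library. A value of 1 stands for no count; the plus-strand genes from mt-Td to mt-Nd4l have 0 counts in 4 of 4 libraries except mt-Nd3, which has 3 and 1 counts in replicates 2 and 3.

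Each minus-strand gene was also set against the plus-strand gene nearest to it, and it had more counts per kb in every library in 6 of 9 pairs. The pairs are not independent, since mt-Tw stands in 2 and mt-Co1 in 3 of them, and mt-Tn and mt-Tc lie 72 and 70 bases from their partners with another gene between. Between the abutting tRNA genes, mt-Tp had 22104, 23060, 16642 and 15493 counts per kb in replicates 1 to 4, against 254, 209, 194 and 313 for mt-Tt, a log2 ratio of 6.31 ± 0.49. Counted over whole genes, mt-Nd6 exceeded mt-Nd5, with which it shares 14 bases, by a log2 ratio of 4.24 ± 0.28. The ratio of mt-Te to mt-Cytb was 0.91 ± 0.46, positive in 4 of 4 libraries. By exact sign flips, two-sided, each of these 3 pairs reached the smallest p that 4 libraries allow. That p, 2 of 16 sign assignments, is above 0.05. Any pair with the same sign in 4 of 4 libraries gives it, as mt-Ts1 over mt-Co1 did in the other direction. It thus does not set these pairs apart.

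In 3 more pairs the plus-strand partner had at most 8 counts in any library, and counts are given in place of a fold. For mt-Ti they were 2, 4, 0 and 0, against 319, 266, 229 and 261 for mt-Tq. For mt-Tw (tRNA-Trp) they were 0, 8, 1 and 4, below both mt-Ta and mt-Tn in 4 of 4 libraries. The pairs with mt-Co1, the gene of the catalytic core of complex IV, went otherwise. Per kb, mt-Tc and mt-Ty exceeded mt-Co1 in 3 of 4 libraries and were below it in replicate 4, with log2 ratios of 0.94 ± 1.27 (exact sign-flip p = 0.375) and 1.18 ± 1.07 (exact sign-flip p = 0.25). The gene mt-Ts1, which shares 3 bases with mt-Co1, was the 1 minus-strand gene below its neighbour in every library. It had 5, 1, 2 and 1 counts against 2442, 704, 814 and 3107 for mt-Co1. It is also the 1 minus-strand gene that lies by position inside the nuclear copy on chromosome 1. What part this had in its low counts was not tested.

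**Figure D3:**
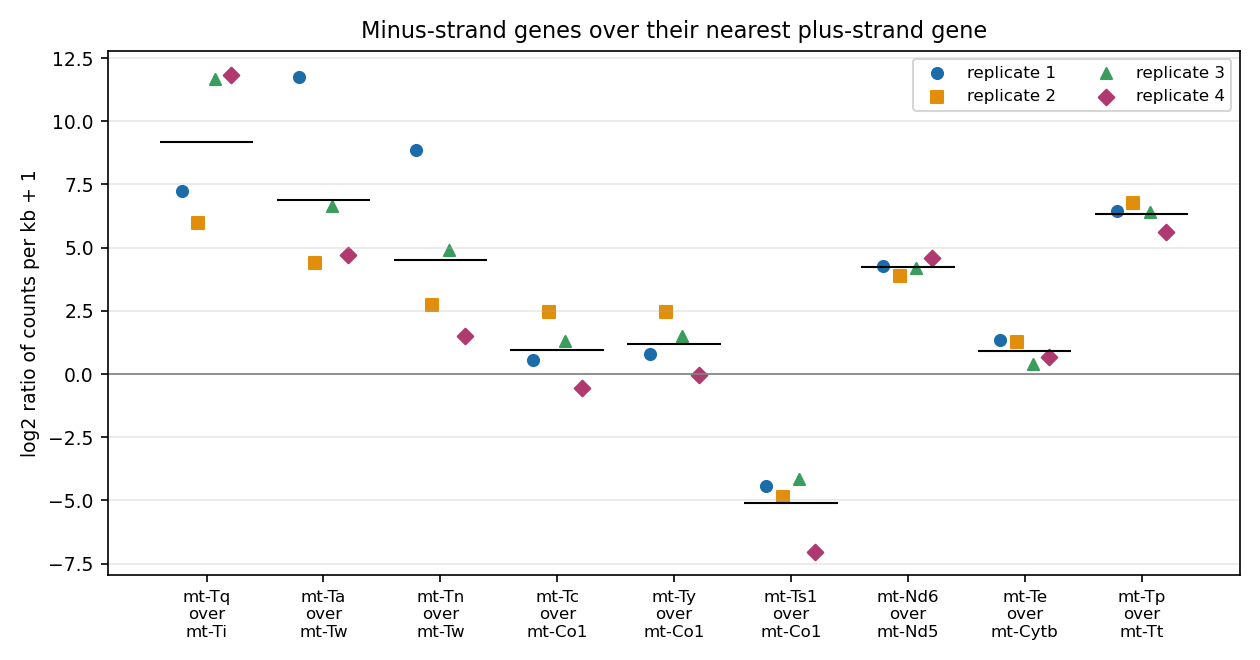
Log2 ratio of counts per kb plus 1, each minus-strand gene over the plus-strand gene nearest to it, with 1 point per library and a bar at the mean. The ratio is above 0 in every library for 6 of 9 pairs and below 0 in every library for mt-Ts1 over mt-Co1; ratios over mt-Ti and mt-Tw rest on partners with 0 to 8 counts and depend on the added 1.

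The plus-strand mRNA and rRNA genes divided into 8 genes with 51 to 5203 counts per library and a run of genes with almost none. Of the complex I genes, mt-Nd5 had 4648, 5203, 3952 and 2982 counts in replicates 1 to 4, mt-Nd4 1241, 2151, 1510 and 1411, mt-Nd2 1322, 934, 698 and 1050, and mt-Nd1 1016, 554, 380 and 855. The complex III gene mt-Cytb had 2312, 1678, 1428 and 1544, and mt-Co1 of complex IV had 2442, 704, 814 and 3107. The rRNA of the small mitochondrial ribosome subunit, mt-Rnr1, had 329, 51, 66 and 363 counts, and that of the large subunit, mt-Rnr2, 483, 142, 143 and 391. Both rRNA genes were below the 6 counted mRNA genes per kb on average, with 212 ± 175 and 183 ± 110 counts per kb (SD, n = 4), against 733 ± 300 for mt-Nd1 and 2301 ± 525 for mt-Nd5, the lowest and the highest of those 6 genes. Order among neighbours in this ranking did not exceed the spread for mt-Nd4 at 1145 ± 289, mt-Co1 at 1144 ± 774 and mt-Nd2 at 964 ± 250 counts per kb. The labels name total RNA-seq and the linked protocol poly(A) RNA. What part the library preparation had in the rRNA counts was not tested.

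No library had a count for 5 mRNA genes, namely mt-Co2 and mt-Co3 of complex IV, mt-Atp8 and mt-Atp6 of ATP synthase and mt-Nd4l of complex I, while mt-Nd3 of complex I had 0, 3, 1 and 0. These 6 genes and 5 tRNA genes around them form 1 unbroken run from mt-Ts1 to mt-Nd4l, in which 11 genes had 13 counts over the 4 libraries. Of the 11 mitochondrial genes without a count, 9 lie in this run, and the other 2 are the tRNA genes mt-Tf and mt-Tv on either side of mt-Rnr1. Over the whole mitochondrial genome 26 of 37 genes had a count in some library, beside 32.8% of all 50600 genes.

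The run without counts coincides with sequence that is present a second time in the nuclear genome. On chromosome 1, 7 genes annotated as unprocessed pseudogenes on the minus strand (chr1:24611535-24616197, mm10) follow the mitochondrial order and correspond to positions 6381 to 11042 of chromosome M, from inside mt-Co1 to inside mt-Nd4. In 5 of the 7 the annotated sequence equals the mitochondrial one at every aligned base. Over the 7 genes, 4149 aligned bases held 7 differences, of which 6 lie in the first 13 bases of Gm29216, the copy of mt-Co1. The copy is 1 base longer between the copies of mt-Nd3 and mt-Nd4l, the stretch that holds the tRNA-Arg gene mt-Tr.

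Among the plus-strand mRNA and rRNA genes, those with nearly all of their sequence copied had few counts or none. The share of 50-mers with an exact copy in another annotated transcript was 100% for mt-Co2, 99.5% for mt-Atp6, 99.9% for mt-Co3, 98.0% for mt-Nd3 and 98.8% for mt-Nd4l, and these 5 genes averaged at most 2.87 counts per kb. It was 62.2% for mt-Nd4 and 51.1% for mt-Co1, which had counts, and at most 8.19% for mt-Rnr1, mt-Rnr2, mt-Nd1, mt-Nd2, mt-Nd5 and mt-Cytb, which had counts as well. The exception was mt-Atp8, with 0% and no count. By position it lies inside the chromosome 1 copy, between Gm10925 and Gm28661, where no gene is annotated and the nuclear sequence was not analysed here. The command in the file headers does not set the option that counts reads aligned to several places. The part of the copied sequence in the missing counts was not tested.

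**Figure D4:**
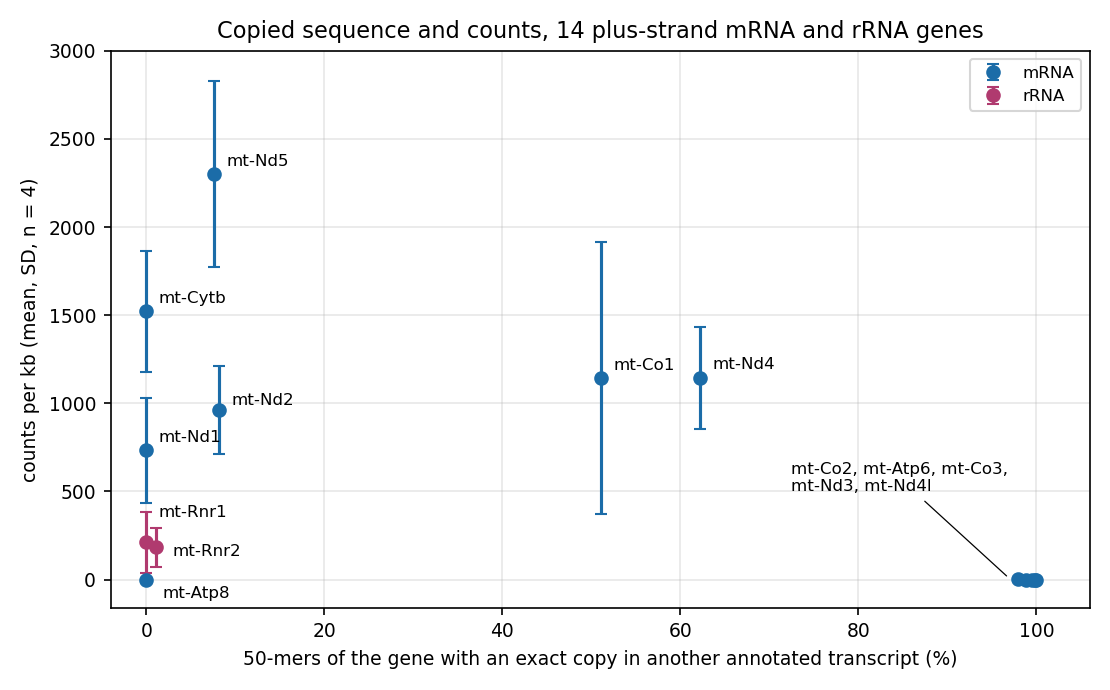
Counts per kb (mean with SD, n = 4) against the share of 50-mers that have an exact copy in another annotated transcript, for the 14 plus-strand mRNA and rRNA genes. The 5 genes with at least 90% copied sit at 0 to 2.87 counts per kb; mt-Atp8 has no count at 0% copied.

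One nuclear copy did have counts. Gm28438, the copy of mt-Nd3 on chromosome 1, had 132, 114, 81 and 69 counts in replicates 1 to 4, while mt-Nd3 itself had 0, 3, 1 and 0. The next in mean count were Gm28437, with 2 counts in replicate 4, and then Gm10925 and Gm13340 with 1 count each, and the 14 copy-bearing genes of the count files together had 133, 114, 81 and 72. Gm28438 differs from mt-Nd3 at 1 of 345 bases, T3C, with the mitochondrial base first, then the position counted from 1 at the first base of mt-Nd3, then the base of the copy. This is position 9461 of chromosome M. Both sequences are shown because this base alone sets them apart. The first 60 bases are given on the mitochondrial plus strand for mt-Nd3 (chrM:9459-9518) and on the minus strand of chromosome 1 for Gm28438 (chr1:24613060-24613119), with the differing base in capitals.
mt-Nd3: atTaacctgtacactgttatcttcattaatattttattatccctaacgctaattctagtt
Gm28438: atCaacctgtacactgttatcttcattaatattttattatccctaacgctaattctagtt
The reference assembly is of C57BL/6J and the cells are of C57BL/6NJ. Substrains of C57BL/6 are known to differ at single positions of the mitochondrial genome. The base that these cells carry at the differing position was not analysed here.

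By position, own-strand counts on the plus strand were lower at the rRNA end, mt-Atp8 aside. Scaled by 50-mers without a copy, they were on average higher in the counted genes from mt-Co1 to mt-Cytb. This scale divides the whole count of a gene by its copy-free 50-mers, which raises mt-Co1 and mt-Nd4 most. Whether copied sequence gave any of their counts was not tested. Per 1000 50-mers without a copy, the means in genome order were 223 ± 184 for mt-Rnr1, 191 ± 115 for mt-Rnr2, 772 ± 316 for mt-Nd1, 1102 ± 286 for mt-Nd2, 2417 ± 1636 for mt-Co1, 3144 ± 792 for mt-Nd4, 2559 ± 584 for mt-Nd5 and 1590 ± 360 for mt-Cytb (SD, n = 4). The gene mt-Atp8, with 155 such 50-mers, had no count. Apart from it the lowest means were those of the rRNA genes, so at that end position and kind of RNA cannot be told apart. The highest gene was mt-Co1 in replicates 1 and 4 and mt-Nd4 in replicates 2 and 3, so the order among mt-Co1, mt-Nd4 and mt-Nd5 did not exceed the spread. This scale was chosen after the counts were seen. Dividing by copy-free 50-mers in place of length moved mt-Nd4 from below mt-Nd5 to above it on average, with overlapping libraries. Base composition also differed by strand. Guanine made up 17.9% to 29.9% of the minus-strand genes, median 23.2%, against 5.88% to 21.3% of the plus-strand genes, median 13.5%, each read on its own strand.

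Between replicates the ranges of spread overlapped between the strands, with the higher median on the plus strand. Among genes that averaged 10 counts or more, the coefficient of variation of CPM was 3.53% to 43.5% in 8 minus-strand genes, median 17.3%, against 7.76% to 89.7% in 12 plus-strand genes, median 53.5%. For mt-Nd6 and mt-Nd5 the highest library was 1.34 and 1.20 times the lowest in CPM, while for mt-Rnr1, mt-Co1 and mt-Rnr2 it was 10.4, 6.43 and 4.01 times. In a chi-square test against Poisson sampling over all genes at that level, Benjamini-Hochberg adjusted at 0.05, 17 of 20 mitochondrial genes varied beyond counting noise, beside 88.2% of the 7752 genes tested. Those not called were mt-Tq (adjusted p = 0.93), mt-Ty (adjusted p = 0.055) and mt-Tt (adjusted p = 0.44).

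Several genes deviated together. On the log2(CPM + 1) scale, mt-Rnr1 deviated from its 4-library mean by 1.02, -1.69, -0.97 and 1.64 in replicates 1 to 4, mt-Rnr2 by 0.77, -1.04, -0.68 and 0.95, and mt-Co1 by 0.58, -1.28, -0.71 and 1.41. The plus-strand genes mt-Nd1, mt-Nd2 and mt-Cytb and the minus-strand gene mt-Tq were likewise above their means in replicates 1 and 4 and below in replicates 2 and 3, which makes 7 of 20 genes. The TMM factors of the libraries were 0.12, -0.23, -0.12 and 0.24 on the log2 scale. With TMM factors 5 of these 7 genes kept the pattern, mt-Tq and mt-Cytb losing it, and with median-of-ratios factors mt-Nd2 lost it, at 0.01 in replicate 2. Replicates 1 and 4 also had the most counts in genes free of exons on the opposite strand, a share of 16.4%, 8.54%, 9.14% and 20.1% over replicates 1 to 4. Its part in these deviations was not tested.

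Another order, above the mean in replicates 1 and 2 under the 3 scalings tried, was that of 5 tRNA genes, mt-Ta and mt-Te on the minus strand and the 3 adjacent genes between mt-Nd4 and mt-Nd5 on the plus strand. In replicates 1 to 4, mt-Th deviated by 0.75, 1.49, -1.74 and -0.50, mt-Ts2 by 0.87, 0.81, -0.40 and -1.29 and mt-Tl2 (tRNA-Leu) by 1.23, 0.80, -0.52 and -1.52. Counts of these 3 genes were 2 to 56 per library, so the counting error is large. Values of the mRNA genes on either side were smaller. The deviations of mt-Nd4 were -0.50, 0.24, 0.09 and 0.17 and those of mt-Nd5 -0.0026, 0.10, 0.06 and -0.16, and the signs of mt-Nd4 in replicate 4 and of mt-Nd6 in replicates 1, 2 and 4 turned with the scaling.

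**Figure D5:**
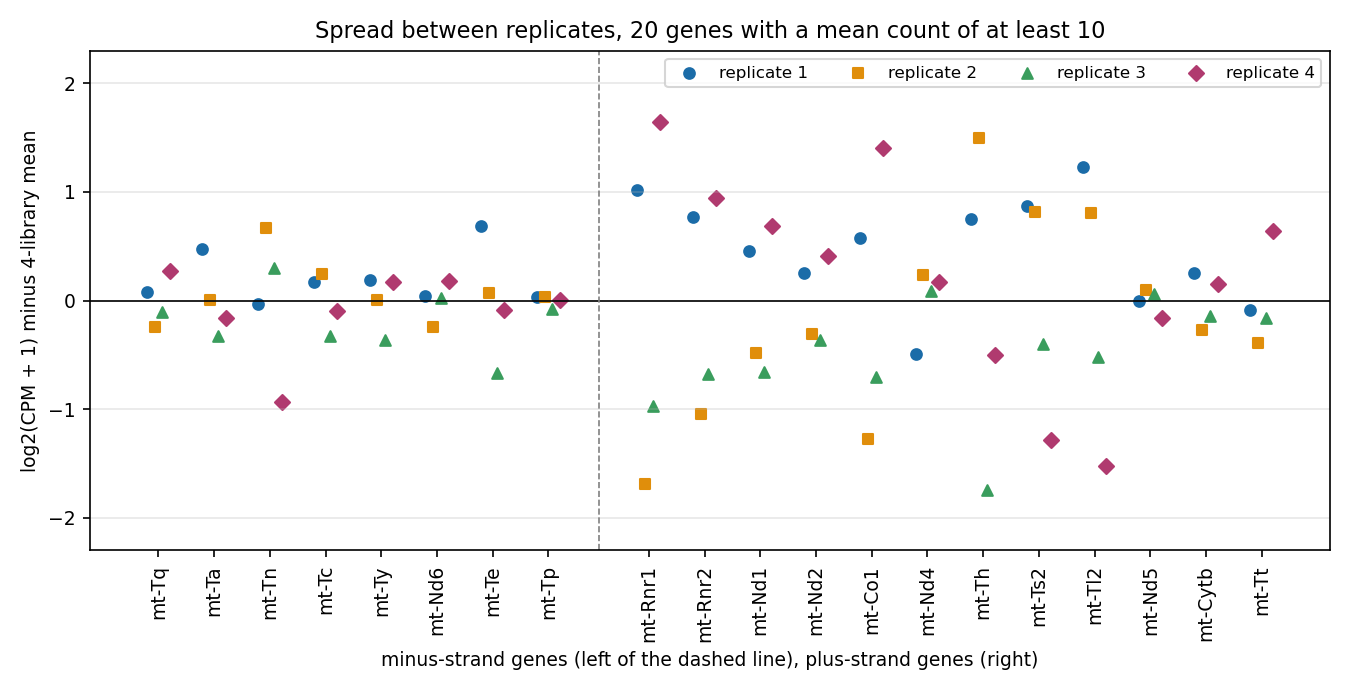
Deviation of log2(CPM + 1) from the 4-library mean for the 20 mitochondrial genes that averaged 10 counts or more, minus-strand genes left of the dashed line and plus-strand genes right of it, with 1 point per library. The points of mt-Rnr1, mt-Rnr2 and mt-Co1 lie far apart, with replicates 1 and 4 above 0, while those of mt-Tp lie within 0.11 of each other on this scale and within 0.50 with TMM factors.

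Nuclear genes that transcribe, process and copy the mitochondrial genome were counted on their own strand too. Of 24 such genes, 21 had a count, beside 32.8% of all genes, and the median of those 21 was 2.36 FPKM beside 1.78 over the 16612 genes with a count. In 10 of them an exon lies across from another gene's exon. The other 14 had a median of 1.48 FPKM over the 11 with a count, beside 1.21 over all such genes with a count. Among them, Hsd17b10, a subunit of the mitochondrial RNase P in human cells, had 50, 12, 23 and 33 counts in replicates 1 to 4. Pnpt1, a ribonuclease that degrades mitochondrial RNA in human cells, had 98, 25, 23 and 26. Grsf1, an RNA-binding protein of human mitochondrial RNA granules, had 4, 5, 1 and 33. Tfb2m, which the mitochondrial RNA polymerase needs to start transcription, had 0 in 4 of 4 libraries, as did Mterf1a, a transcription termination factor, and Fastkd5, which takes part in RNA processing in human cells. Own-strand counts of 0 do not show that these RNAs were absent.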

How the data were processed

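RNA-seq was measured in 4 libraries of 1 group. For each gene, the authors deposited counts of fragments with no normalization. Per the file headers, STAR alignments were counted by featureCounts (v1.4.6-p4), with both ends mapped, strand option 1 and GENCODE M13 exons. No STAR version was found in those headers. Gene names, biotypes and sequences came from GENCODE M21 by identifier without version. No genome sequence was used, so copies of mitochondrial 50-mers were sought on both strands of annotated transcripts alone.

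Counts per kb used the length in the files, and CPM and FPKM the total gene count. Pooled strand ratios were log2 with 1 per kb added. Spread was tested with a chi-square test using TMM factors from edgeR 4.0.16 over genes averaging 10 counts or more, with DESeq2 1.42.0 factors as an alternative (R 4.3.3, Python 3.11.15), after a test on simulated counts. Scaling by copy-free sequence was added after seeing the data. Neighbour pairs were set by position and tested by exact sign flips. The named genes were the mRNA, rRNA and minus-strand tRNA genes, the 3 highest plus-strand tRNA genes and copies, and 3 highest and 3 lowest nuclear genes without an opposite exon. The members, lists and tests were chosen with earlier results of these data known. Other plus-strand tRNA genes were named after their values were seen. The labels name biological replicates with the same donor record, so the sign-flip p-values measure the spread between these 4 libraries alone. The chi-square p-values compare the variation between them with counting error.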

Additional observations from a re-analysis of the deposited data

How the results depend on the processing

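Over 100 combinations of a result and an alternative, 3 turned and 8 moved beyond the spread between replicates. The other 89 did neither, but neighbour pairs were judged by direction alone and counts of genes by a change of 1.5 times. In counts rather than counts per kb, for example, mt-Nd6 over mt-Nd5 was 2.42 and mt-Ts1 over mt-Co1 -8.95, and leaving out replicate 2 put mt-Tc over mt-Co1 at 0.43. Of the 26 genes with a count, 21 had one in every library and 20 averaged 10 or more. The log2 ratio of the mRNA genes was 7.09 with the median over genes in place of pooling, 4.86 over genes with at least 50% of their 50-mers unique and 4.94 over genes outside the chromosome 1 copy, an alternative chosen after seeing the data. For the tRNA genes it was 9.20 with the median, which depends on the added 1 where the plus-strand median is near 0. For all genes it was 7.33 with the median, 2.33 without mt-Nd6 and 4.56 outside the copy. The mitochondrial share averaged 2.29%, and 3.86% over genes without an exon opposite another gene. That set leaves out mt-Nd6, mt-Nd5, mt-Co1, mt-Tq, mt-Ti and mt-Ts1. It held 8.54% to 20.1% of all counts, so the 2 shares are not of the same genes. Leaving out 1 replicate at a time gave 5.34 to 5.45 for mRNA genes, 5.28 to 5.74 for tRNA genes, 4.76 to 4.89 for all genes, 2.17% to 2.40% for the share, 26 genes with counts each time and 16 to 17 genes beyond Poisson sampling. In counts, mt-Tc over mt-Co1, mt-Ty over mt-Co1 and mt-Te over mt-Cytb were -3.60, -3.34 and -3.13, because the plus-strand partner is far longer. With 36-mers or 100-mers, 7 or 6 mRNA genes had at least 50% copied, against 7 with 50-mers. The ratio over mRNA genes that share no base with another gene gave no value, because mt-Nd6 shares bases with mt-Nd5. No paired analysis was possible because the libraries form 1 group.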
